A study of Homo sapiens with 4 samples.

Results

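The genes described here encode collagens, laminins and integrins, the fibrils and sheets of the extracellular matrix and the receptors that hold cells to them. They were chosen by symbol, as every gene of the array whose name is that of a collagen chain, a laminin chain, or an integrin alpha or beta chain, and they number 78 of the 18334 genes measured. Of the 78, 42 are collagen genes, 10 are laminin genes, 18 encode integrin alpha chains and 8 encode integrin beta chains, and 191 array features represent them.

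The cells were LNCaP, a prostate carcinoma line that came from a lymph node metastasis and keeps luminal epithelial traits. All of them went without serum for 24 h, and were then kept for a further 24 h or 48 h in 1 µM 5-azacytidine or in its solvent alone, DMSO (the vehicle). Each of 4 two-colour arrays compared treated RNA in Cy5 with vehicle RNA of the same time in Cy3, with 2 arrays at each time and no dye swap. Nothing in the labels says that the replicates were separate cultures, so the p-values below may measure technical spread only, and a cell line stands for the tumour of 1 donor.

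5-Azacytidine resembles cytidine, enters both RNA and DNA, and holds DNA methyltransferases on the DNA, so that dividing cells lose cytosine methylation. Collagen chains wind into triple helices that form fibrils, networks or anchoring filaments. Laminins are heterotrimers of an alpha, a beta and a gamma chain that polymerise in basement membranes, and integrins are alpha-beta heterodimers that bind these ligands outside the cell and the actin or keratin cytoskeleton inside it. In the normal prostate, basal cells sit on a basement membrane through laminins and hemidesmosomal integrins, and luminal cells have little contact with it.

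Every value below is a log2 ratio of treated over vehicle cells, so 1 is a doubling in treated cells and 0 is no difference, and a gene's value is the mean of its features. A ratio says nothing of a gene's level, levels of different genes are not compared, and in bulk RNA a change in the number of cells that express a gene cannot be told from a change in RNA per cell. "Rose" and "fell" are used of genes with an adjusted p under 0.05 in limma, a linear model fitted to all 18334 genes. Across all genes, Pearson's r was 0.917 for the 24 h pair of arrays and 0.873 for the 48 h pair. Replicate arrays differed by a median of 0.14 over the 78 genes at 24 h and of 0.27 at 48 h. The cell type in the labels could not be checked against its markers, because ratios give no level.

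The start regions of 6 genes are shown first, because the methyltransferases that 5-azacytidine holds act mainly on cytosines followed by guanine (CG). The 6 were picked for large ratios, by a rule that differed for genes that rose and genes that fell. LAMB3, LAMA4 and ITGAM rose the most at 48 h among members that rose at both times and have a start window in the table used here, and ITGB1, COL12A1 and ITGA6 fell the most at 48 h among those with such a window. Each window runs from 250 bases before to 50 bases after an annotated start (RefSeq, GRCh38.p14), is written 5′ to 3′ on the gene's strand, and has every CG in capitals.
LAMB3, chr1:209652280-209652579, minus strand, 11 CG: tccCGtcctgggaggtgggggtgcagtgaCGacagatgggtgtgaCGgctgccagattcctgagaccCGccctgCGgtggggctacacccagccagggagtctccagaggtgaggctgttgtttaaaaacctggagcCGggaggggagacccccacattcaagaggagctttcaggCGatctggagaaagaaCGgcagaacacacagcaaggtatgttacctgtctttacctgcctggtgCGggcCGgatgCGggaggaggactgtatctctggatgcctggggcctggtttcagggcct
LAMA4, chr6:112254518-112254817, minus strand, 8 CG: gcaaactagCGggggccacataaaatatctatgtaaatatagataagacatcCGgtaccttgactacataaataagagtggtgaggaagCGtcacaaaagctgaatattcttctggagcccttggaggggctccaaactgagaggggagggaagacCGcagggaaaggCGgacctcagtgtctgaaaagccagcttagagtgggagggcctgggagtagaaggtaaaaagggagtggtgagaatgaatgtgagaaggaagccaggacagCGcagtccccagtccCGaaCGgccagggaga
ITGAM, chr16:31259725-31260024, plus strand, 2 CG: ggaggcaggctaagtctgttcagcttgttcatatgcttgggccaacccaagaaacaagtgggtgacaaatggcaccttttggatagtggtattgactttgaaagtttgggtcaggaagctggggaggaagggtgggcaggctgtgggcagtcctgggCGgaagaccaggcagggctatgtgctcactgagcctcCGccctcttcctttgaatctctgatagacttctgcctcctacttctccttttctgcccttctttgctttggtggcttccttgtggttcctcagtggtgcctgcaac
ITGB1, chr10:32958181-32958480, minus strand, 39 CG: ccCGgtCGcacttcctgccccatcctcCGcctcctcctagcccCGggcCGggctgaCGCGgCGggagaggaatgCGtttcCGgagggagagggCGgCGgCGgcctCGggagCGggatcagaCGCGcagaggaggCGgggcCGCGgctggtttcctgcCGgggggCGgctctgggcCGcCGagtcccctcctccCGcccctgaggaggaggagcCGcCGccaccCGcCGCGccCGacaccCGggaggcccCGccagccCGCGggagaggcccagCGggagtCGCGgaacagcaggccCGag
COL12A1, chr6:75206004-75206303, minus strand, 29 CG: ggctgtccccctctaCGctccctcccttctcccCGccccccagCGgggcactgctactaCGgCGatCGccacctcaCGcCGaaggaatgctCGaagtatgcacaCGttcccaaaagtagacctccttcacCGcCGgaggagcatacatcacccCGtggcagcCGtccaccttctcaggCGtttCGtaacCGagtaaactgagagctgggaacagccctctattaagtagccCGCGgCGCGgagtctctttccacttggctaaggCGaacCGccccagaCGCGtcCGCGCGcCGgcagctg
ITGA6, chr2:172427336-172427635, plus strand, 38 CG: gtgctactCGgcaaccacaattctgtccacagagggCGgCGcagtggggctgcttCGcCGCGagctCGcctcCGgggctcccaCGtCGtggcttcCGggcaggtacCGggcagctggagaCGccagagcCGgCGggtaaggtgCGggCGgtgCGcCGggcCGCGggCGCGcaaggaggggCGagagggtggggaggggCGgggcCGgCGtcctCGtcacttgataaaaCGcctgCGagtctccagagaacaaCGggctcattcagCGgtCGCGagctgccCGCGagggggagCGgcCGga

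Where a gene has several annotated start windows, the one with the most CG is shown, and these windows describe 6 chosen genes only. Of all 35116 windows in the table, 54.7% hold at least as many CG as that of LAMB3, 89.0% at least as many as that of ITGAM, and 8.7% at least as many as that of ITGB1. LAMB3 has a further pair of annotated start windows, with 10 and 3 CG, ITGB1 has another with 4, and ITGA6 has another with 11, as many as the LAMB3 window shown. The shown windows of the 3 genes that rose hold fewer CG than those of the 3 that fell, but the other windows of ITGB1 and ITGA6 do not keep that order. The order also rests on the choice of genes, since only those that rose had to be called at both times. COL11A2, called at 48 h only, stood at 2.17 then, above ITGAM at 2.10, and its window holds 37 CG. The arrays measured no methylation, so nothing is known here of the state of these CG sites.

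At 24 h 13 of the 78 genes rose and 3 fell, 20.5% together, against 24.3% of all genes measured (14.3% higher and 9.97% lower). At 48 h 23 rose and 7 fell, 38.5% together, against 38.8% of all genes (18.2% higher and 20.7% lower). The share that changed was thus near that of all genes at both times. At 48 h 29.5% of the members were called higher and 8.97% lower. The median ratio of the members was 0.08 at 24 h and 0.18 at 48 h, where that of all genes was 0 at both times. Between the times, 16 members differed, 10 of them with a higher ratio at 48 h and 6 with a lower one, against 23.0% of all genes (9.83% higher and 13.1% lower). These counts rested on the 24 h arrays: without either of them limma called 0 members and 0 genes in all 3 comparisons, although between 16 and 19 members at 24 h, 29 at 48 h and between 11 and 14 for the difference then had an unadjusted p under 0.05. The 48 h arrays fitted alone also gave 0 calls, with 29 members at an unadjusted p under 0.05. The split at 24 h also moved with the scaling of the arrays, to 16 higher and 11 lower members when arrays were scaled to 1 spread and to 15 higher and 12 lower after quantile normalization. At 24 h 25 members were called with the genes at 0 on all arrays left out, and 29 of the 57 that remained with the features at 0 left out.

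Of the 42 collagen genes, 3 rose and 1 fell at 24 h, and 13 rose and 1 fell at 48 h, with class medians of 0 and 0.33. Whether called or not, 6 collagens had a 24 h mean of -1 or lower and 2 a mean of 1 or higher. Among them COL5A2 (-1.42, the lowest of all members), COL26A1 (-1.05) and COL8A2 (-1.01) were not called (adjusted p = 0.0576, 0.0665 and 0.0818). With features at 0 left out, these genes were called lower at both times. Of the 10 laminin genes, 4 rose and 1 fell at 24 h, and 3 rose and 1 fell at 48 h. Of the 26 integrin genes, 6 rose and 1 fell at 24 h, and 7 rose and 5 fell at 48 h. No test of one class against another, or of a class against the shares over all genes given above, was made. Only 9 members were called at both times, 7 of them in the same direction, and the remaining 2, ITGB1 and ITGB5, rose at 24 h and fell at 48 h. Among all 18334 genes 2902 were called at both times, 2092 of them in the same direction, so such turns were not particular to the members.

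**Figure D1:**
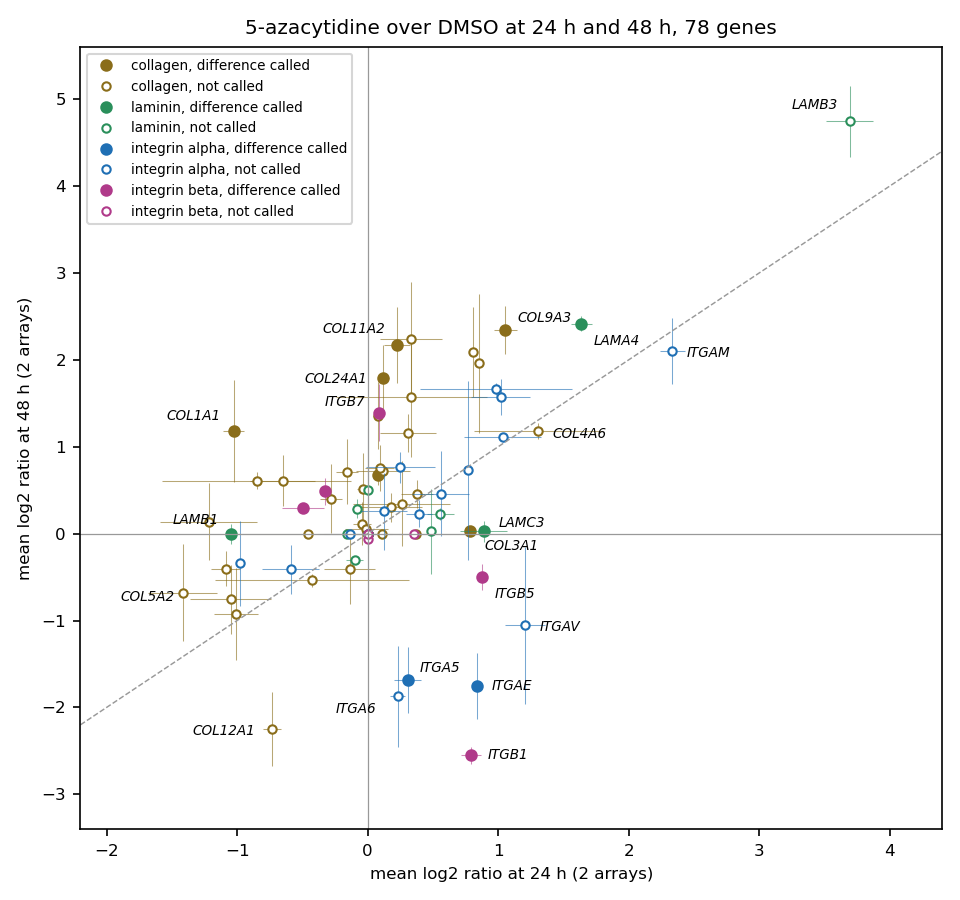
Mean log2 ratio of treated over vehicle cells at 24 h (x axis) and 48 h (y axis) for the 78 genes, coloured by class, with bars of 1 SD over 2 arrays and filled points where the 2 times differed (limma adjusted p under 0.05). LAMB3 lies at the upper right, COL1A1 at the upper left, and ITGB1, ITGAE and ITGA5 lie at the lower right, above 0 at 24 h and below 0 at 48 h.

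The laminin gene LAMB3 had the highest ratio of all the members at both times. It encodes the beta chain of the basal epithelial laminin that anchors hemidesmosomes, and the other subunits of that trimer are not analysed here. Its single feature read 3.57 and 3.82 at 24 h, then 4.45 and 5.03 at 48 h. Both times stood far above 0, and the 48 h arrays lay above both 24 h arrays. The mean rose 13.0-fold at 24 h (log2 3.69 ± 0.18 SD, n = 2, limma adjusted p = 0.0155) and 26.8-fold at 48 h (4.74 ± 0.41, adjusted p = 0.00813). The step of 1.05 ± 0.27 (SE) from 24 h to 48 h did not pass the test (adjusted p = 0.0867).

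LAMA4 encodes an alpha chain found in the laminins of vessel walls, muscle and fat. It read 1.58 and 1.69 at 24 h and 2.36 and 2.48 at 48 h, with no overlap between the times. It rose at both, by 1.64 ± 0.08 (adjusted p = 0.0134) and 2.42 ± 0.09 (adjusted p = 0.00714), and the ratio at 48 h was higher by 0.78 ± 0.08 (SE, adjusted p = 0.0354). That difference was 0.20 and no longer passed (adjusted p = 0.637) when the arrays were scaled to 1 spread. The 2 features of LAMA4 did not read alike: one stood at 3.49 at 24 h and 4.35 at 48 h, the other at -0.22 and 0.48.

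The chains of the common basement membrane laminins moved little or in other directions. LAMB1, the beta chain of the widespread laminins, read -1.06 and -1.03 at 24 h and -0.09 and 0.08 at 48 h. It fell 2.06-fold at 24 h (-1.04 ± 0.02, adjusted p = 0.0160), and its mean at 48 h was -0.01 ± 0.12 (adjusted p = 1.0), a difference between the times of 1.04 ± 0.08 (SE, adjusted p = 0.0283). LAMC1, the gamma chain that most laminins share, read 0.48 on both 24 h arrays and 0.37 and -0.32 at 48 h, and passed at neither time. LAMA5, the main alpha chain of adult epithelial basement membranes, rose by 0.29 ± 0.11 at 48 h (adjusted p = 0.04996), just under the threshold. LAMB2, the beta chain of muscle, synapse and kidney laminins, fell by 0.31 ± 0.04 at 48 h (adjusted p = 0.0285). The calls of LAMA5 and LAMB2 at 48 h were lost when features at 0 were left out (adjusted p = 0.120 and 0.0966). Neither gene had a feature at 0, so their values stayed the same and only the other genes in the fit changed.

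LAMC3 and LAMA1 rose at 24 h but were not called at 48 h. LAMC3, a gamma chain of nerve and other restricted sites, read 0.76 and 1.02 at 24 h and -0.06 and 0.11 at 48 h. Its mean of 0.89 ± 0.18 passed at 24 h (adjusted p = 0.0295), and the 48 h ratio was lower by 0.86 ± 0.14 (SE, adjusted p = 0.0493). LAMA1, the alpha chain of embryonic laminin, rose by 0.56 ± 0.10 at 24 h (adjusted p = 0.0299), but its 5 features ranged from -0.27 to 1.91 at that time and their median was 0. LAMA2, the muscle alpha chain, was listed at 0 on 3 arrays and at 1.00 on the other, and LAMB4 was listed at 0 on 3 arrays and at -0.32 on the other.

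**Figure D2:**
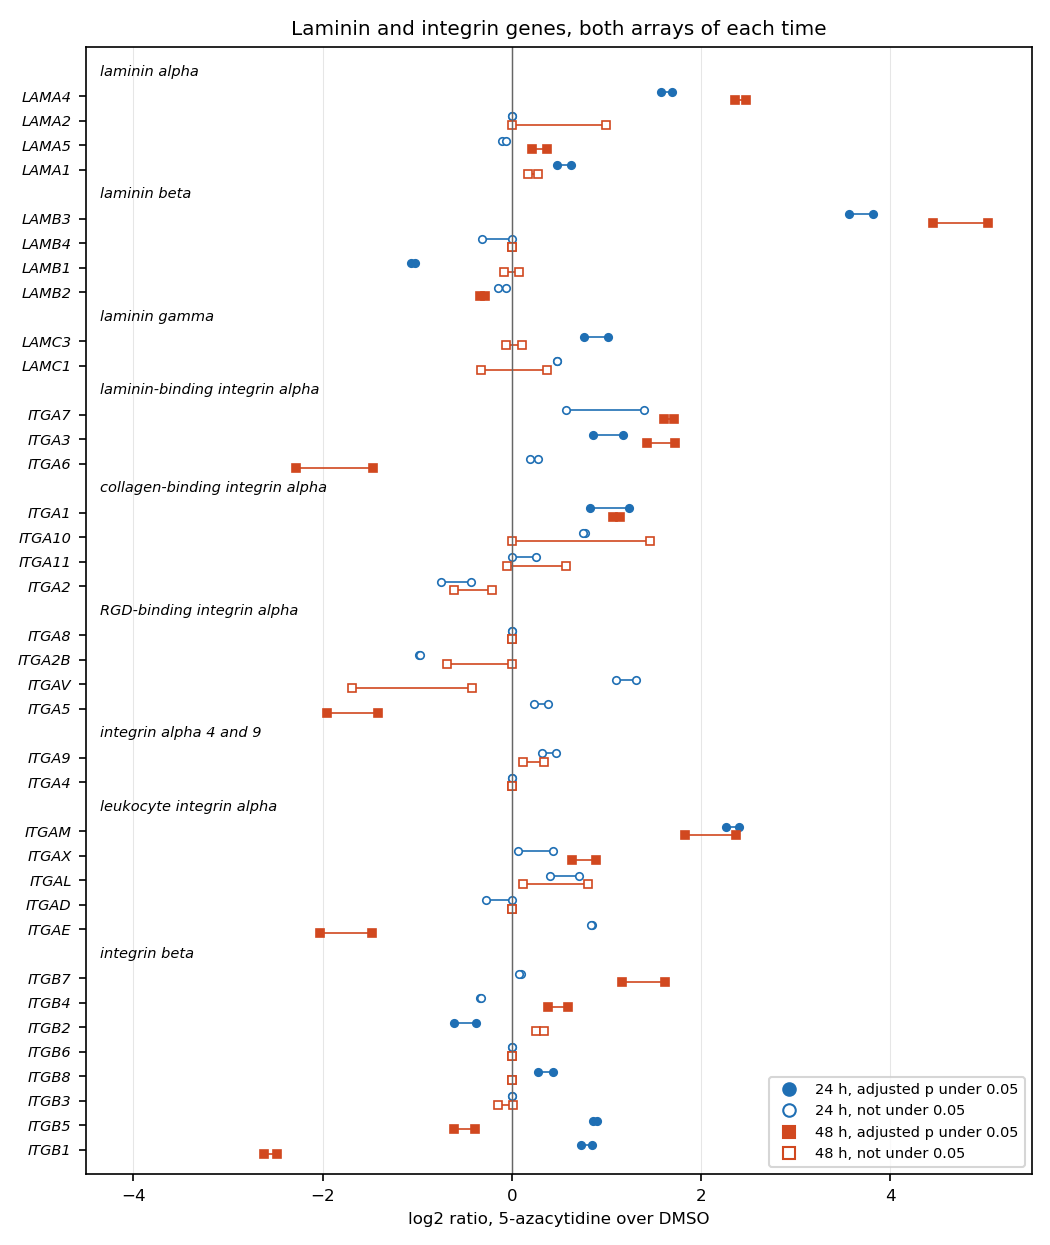
Log2 ratio of treated over vehicle cells on each array (x axis) for the 10 laminin and 26 integrin genes, grouped by chain type and ordered by the 48 h mean; circles are 24 h arrays, squares 48 h arrays, and filled points have a limma adjusted p under 0.05. LAMB3 lies above 3.5 on all 4 arrays, and ITGB1 crosses from above 0 at 24 h to below -2.4 at 48 h.

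Most collagens that changed did so at 48 h. The fibril-forming collagens build the banded fibrils of bone, skin and cartilage. At 48 h 4 of 11 rose and 0 fell (36.4% and 0%, against 18.2% and 20.7% of all genes), with a median of 0.61. The 4 were COL11A2 and COL2A1, which in cartilage share fibrils, COL24A1, a collagen of developing bone and cornea, and COL5A1, which sets the diameter of type I fibrils. COL11A2 read 0.30 and 0.16 at 24 h and 1.86 and 2.48 at 48 h, so the 48 h arrays were higher without overlap. It rose 4.50-fold at 48 h (2.17 ± 0.44, adjusted p = 0.0161), and the difference between the times was 1.94 ± 0.28 (SE, adjusted p = 0.0444). COL24A1 followed the same course, with 0.09 and 0.15 at 24 h and 1.52 and 2.06 at 48 h, a rise of 1.79 ± 0.38 at 48 h (adjusted p = 0.0168) and a difference of 1.67 ± 0.24 (SE, adjusted p = 0.0443). COL2A1 rose by 1.96 ± 0.80 at 48 h (adjusted p = 0.0403), with both 24 h arrays already at 0.86 and 0.85, a 24 h value that did not pass (adjusted p = 0.188). COL5A1 rose by 0.76 ± 0.27 (adjusted p = 0.0382), which came from 1 of its 2 features (1.53 and -0.02).

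COL1A1 and COL3A1, chains of type I and type III collagen, the most abundant collagens of connective tissue, did not move together. COL1A1 read -0.97 and -1.08 at 24 h and 0.77 and 1.60 at 48 h. All 10 of its features were below 0 at the first time and above 0 at the second, but they share a transcript record and may be repeats of the same probe. Neither mean passed the test in the fit to all genes (-1.03 ± 0.08, adjusted p = 0.0879, and 1.18 ± 0.59, adjusted p = 0.0556), but the difference of 2.21 ± 0.36 (SE) did, narrowly (adjusted p = 0.0498). Both means passed with the genes at 0 on all arrays left out (adjusted p = 0.0343 and 0.0165), a setting that left the COL1A1 values the same. The call of the difference was lost with the median over features (adjusted p = 0.0515) and with robust variance moderation (adjusted p = 0.0643). It was also lost with the features of each transcript record averaged first (adjusted p = 0.0502), which left the COL1A1 values the same and changed only other genes in the fit. COL1A2, the partner of COL1A1 in the type I helix, stood at -0.01 ± 0.16 and 0.06 ± 0.02. All 11 of its features were listed at 0 on at least 1 array, and 3 of them on every array. An exact 0 can stand for an unmeasured spot, so these means do not show whether COL1A2 changed. COL3A1 rose by 0.78 ± 0.02 at 24 h (adjusted p = 0.0151) and stood at 0.03 ± 0.05 at 48 h, a difference of -0.75 ± 0.05 (SE, adjusted p = 0.0262). Of the 5 COL3A1 features 3 were above 0 at 24 h and 3 were below 0 at 48 h, when another read 1.28. The remaining feature was listed at 0 on all arrays, and 1 of those below 0 at 48 h was listed at 0 on 3 arrays.

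The fibril-associated collagens decorate fibrils and link them to other matrix. At 48 h 4 of 10 rose and 1 fell (40.0% and 10.0%, against 18.2% and 20.7% of all genes). COL9A3, a chain of the type IX collagen that coats cartilage fibrils, rose at both times. Its arrays read 0.99 and 1.12 at 24 h and 2.15 and 2.54 at 48 h, which are means of 1.05 ± 0.09 (adjusted p = 0.0326) and 2.35 ± 0.27 (adjusted p = 0.00966). The 48 h ratio was higher by 1.29 ± 0.18 (SE, adjusted p = 0.0433), or by 0.80 and no longer called with arrays scaled to 1 spread (adjusted p = 0.0608). Of the other type IX chains, COL9A2 rose by 1.16 ± 0.22 at 48 h (adjusted p = 0.0222), while COL9A1 stood at -0.85 ± 0.72 at 24 h and 0.61 ± 0.10 at 48 h and passed at neither. COL20A1 rose by 2.24 ± 0.66 at 48 h (adjusted p = 0.0276), with features at 1.15 and 3.33, and COL16A1 by 1.36 ± 0.39 (adjusted p = 0.0245).

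COL12A1, a fibril-associated collagen of tendon and other dense tissue, went the other way. It read -0.68 and -0.78 at 24 h and -1.95 and -2.55 at 48 h, below 0 on all 4 arrays and lower at 48 h without overlap. In the fit to all genes it was the only collagen that fell at 48 h. The fall was 2.25 ± 0.42 on the log2 scale, 4.75-fold (adjusted p = 0.0145), and the 2 features of COL12A1 stood at -2.62 and -1.87 then. The 24 h mean of -0.73 ± 0.07 and the difference of -1.52 ± 0.26 (SE) did not pass (adjusted p = 0.0906 and 0.0531).

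Collagen IV forms the network of basement membranes from 6 chains whose genes lie in head-to-head pairs. COL4A6, a chain of smooth muscle and some epithelial basement membranes, rose at both times, by 1.31 ± 0.49 at 24 h (adjusted p = 0.0489) and 1.18 ± 0.09 at 48 h (adjusted p = 0.0431). Its 2 features read alike at 24 h (1.28 and 1.33) but not at 48 h (-0.33 and 2.68), and both calls were lost with robust variance moderation (adjusted p = 0.0632 and 0.0557). COL4A5, its neighbour on chromosome X, stood at 0.18 ± 0.23 and 0.30 ± 0.17 and did not pass. COL4A2 rose by 0.72 ± 0.07 at 48 h (adjusted p = 0.0280), and its neighbour on chromosome 13, COL4A1, the other chain of the ubiquitous network, stood at 0.40 ± 0.40 (adjusted p = 0.182). COL4A3 and COL4A4, the chromosome 2 pair of kidney and lung basement membranes, stood at 0.52 ± 0.41 and -0.54 ± 0.07 at 48 h and did not pass.

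Collagen VI makes beaded filaments near cell surfaces, and its neighbouring genes on chromosome 21 were low at 24 h. COL6A2 read -1.01 and -1.17 at 24 h and -0.55 and -0.26 at 48 h, and fell 2.13-fold at 24 h (-1.09 ± 0.11, adjusted p = 0.0251). COL6A1 read -0.95 and -1.48 at 24 h, a mean of -1.22 ± 0.37 that did not pass (adjusted p = 0.0660), and all 4 of its features lay below 0. COL6A3, the large chain that completes the filament, rose by 0.46 ± 0.16 at 48 h (adjusted p = 0.0493) through 1 of its 2 features, the other being listed at 0 on all arrays.

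Among the remaining collagens, COL7A1, the anchoring fibril collagen that ties the epidermal basement membrane to the stroma below, rose by 0.68 ± 0.12 at 48 h (adjusted p = 0.0154). It read 0.08 and 0.09 at 24 h and 0.59 and 0.76 at 48 h, and the difference of 0.59 ± 0.08 (SE) passed (adjusted p = 0.0436). COL23A1, a transmembrane collagen, rose by 2.09 ± 0.52 at 48 h (adjusted p = 0.0200), and its 24 h arrays stood at 0.82 and 0.80. COL18A1, whose C-terminal fragment is endostatin, stood at -0.16 ± 0.08 and 0.71 ± 0.37 and passed at neither time. Of the collagen genes, 6 were listed at 0 on all 4 arrays (COL6A5, COL6A6, COL8A1, COL15A1, COL19A1 and COL22A1), and no ratio is known for them.

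**Figure D3:**
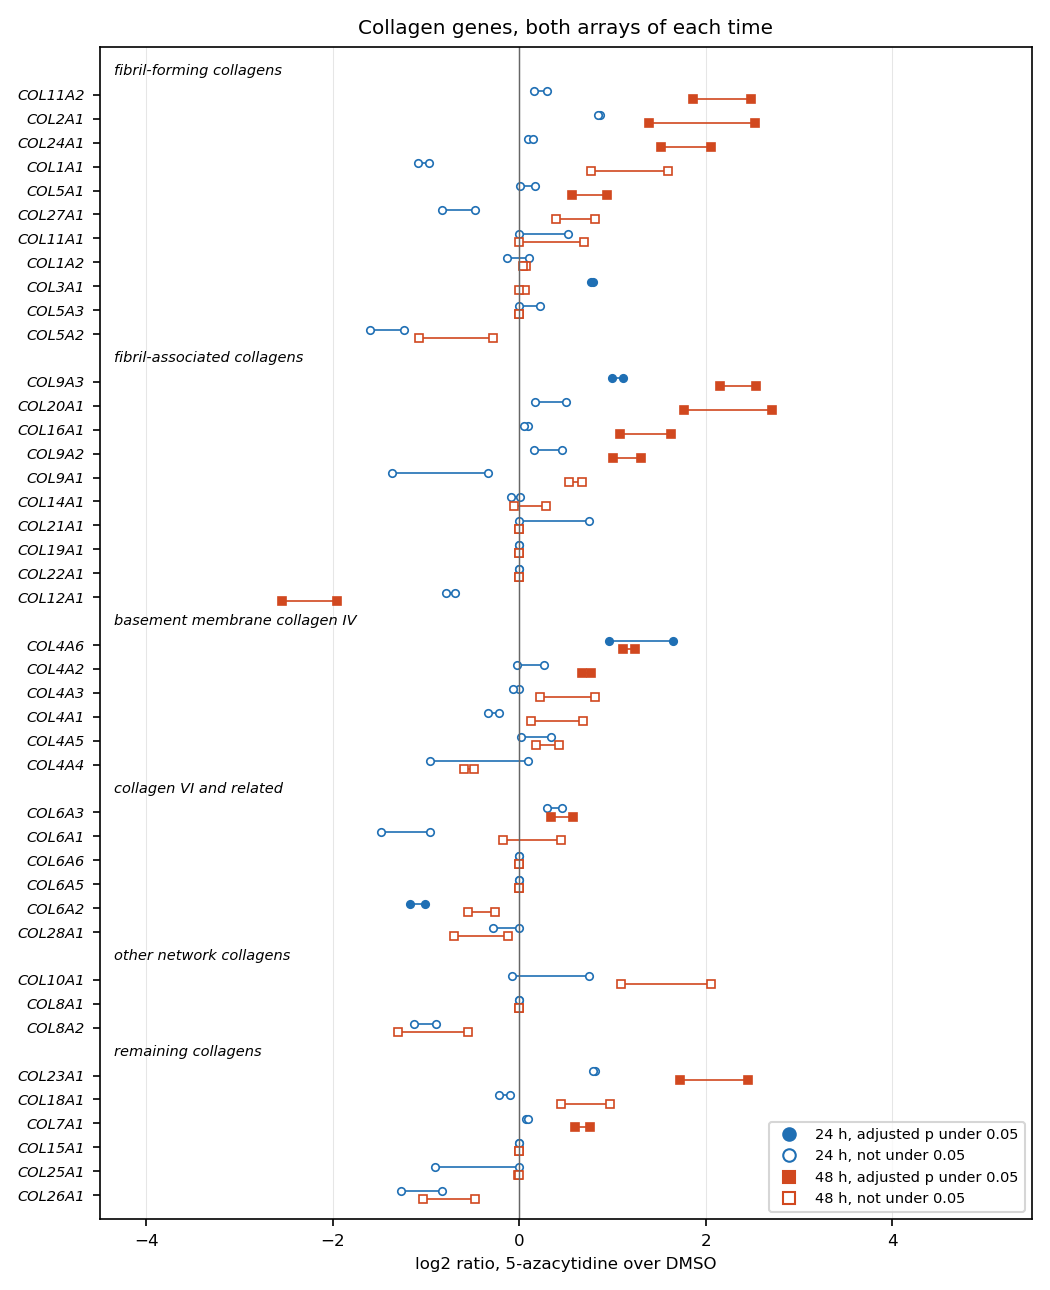
Log2 ratio of treated over vehicle cells on each array (x axis) for the 42 collagen genes, grouped by type and ordered by the 48 h mean; circles are 24 h arrays, squares 48 h arrays, and filled points have a limma adjusted p under 0.05. At 48 h 13 genes are filled above 0 and COL12A1 alone is filled below 0.

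The integrin beta chains set the size of the receptor families, and ITGB1, the partner of most collagen, laminin and fibronectin receptors, changed direction. It read 0.85 and 0.74 at 24 h and -2.48 and -2.62 at 48 h. Both 24 h arrays were above 0 and both 48 h arrays were far below it. ITGB1 rose 1.73-fold at 24 h (0.79 ± 0.08, adjusted p = 0.0209) and fell 5.86-fold at 48 h (-2.55 ± 0.10, adjusted p = 0.00714). The difference, -3.34 ± 0.09 (SE, adjusted p = 0.0211), was the lowest of the 78 members.

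ITGB1 was measured by 12 features, of which 10 read between 0.99 and 1.1 at 24 h and between -2.94 and -2.75 at 48 h. The other two were below 0 at both times, at -0.27 and -0.65 at 24 h and at -1.03 and -1.0 at 48 h. All 12 features thus lay below 0 at 48 h, while the rise at 24 h rested on 10 of them. Those 10 share a transcript record and read nearly alike, so they may be repeats of the same probe and not 10 separate readings. Whether they are was not examined, and the ITGB1 means weight them accordingly. The call at 24 h was lost with the features of each transcript record averaged first (0.14, adjusted p = 0.540), with arrays scaled to 1 spread (adjusted p = 0.0603) and with quantile normalization (adjusted p = 0.0501).

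ITGB5, a partner of ITGAV in vitronectin receptors, made the same turn on a smaller scale. It read 0.90 and 0.86 at 24 h and -0.39 and -0.61 at 48 h, so it rose by 0.88 ± 0.03 (adjusted p = 0.0218) and then fell by 0.50 ± 0.15 on the log2 scale (adjusted p = 0.0300), a difference of -1.38 ± 0.10 (SE, adjusted p = 0.0271). ITGAV itself, the alpha chain of these receptors, read 1.32 and 1.1 at 24 h and -0.42 and -1.69 at 48 h. All 11 of its features were above 0 at 24 h and below 0 at 48 h, but they share a transcript record and may include repeats of the same probe. The ITGAV means of 1.21 ± 0.15 and -1.05 ± 0.90 and its difference of -2.26 ± 0.56 (SE) did not pass (adjusted p = 0.136, 0.140 and 0.0796). The 48 h arrays lay further apart than those of any called member. With features at 0 left out all 3 passed (adjusted p = 0.0446, 0.0460 and 0.0207). ITGAV had no feature at 0, so its values stayed the same and only the other genes in the fit changed.

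The remaining beta chains took other courses. ITGB7, the partner of leukocyte homing integrins, read 0.10 and 0.07 at 24 h and 1.16 and 1.62 at 48 h, and rose 2.63-fold at 48 h (1.39 ± 0.33, adjusted p = 0.0188). ITGB4, the hemidesmosome chain that pairs with ITGA6, read -0.33 and -0.32 at 24 h and 0.38 and 0.60 at 48 h, and rose by 0.49 ± 0.15 at 48 h (adjusted p = 0.0311). ITGB2, the common chain of the leukocyte integrins, fell by 0.49 ± 0.16 on the log2 scale at 24 h (adjusted p = 0.0462), a call lost with robust variance moderation (adjusted p = 0.0570) and with transcript records averaged first (adjusted p = 0.0848), and stood at 0.30 ± 0.06 at 48 h. The differences of these 3 genes between the times were 1.30 ± 0.20 (SE), 0.82 ± 0.10 and 0.79 ± 0.11 (adjusted p = 0.0473, 0.0403 and 0.0439). The call of ITGB8 at 24 h (0.35 ± 0.11, adjusted p = 0.0465) rested on a value of 1.73 from 1 feature on one array and of 1.1 from another feature on the other, with all other readings at 0. ITGB3, the platelet chain, had 8 of 12 features at 0 on all arrays, and ITGB6, the epithelial chain that activates TGF-beta, was listed at 0 throughout.

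The alpha chains set which ligand is bound, and the 3 grouped here as laminin-binding, ITGA3, ITGA6 and ITGA7, were called at 48 h. ITGA3 read 0.86 and 1.18 at 24 h and 1.43 and 1.72 at 48 h, and rose at both times, by 1.02 ± 0.23 (adjusted p = 0.0369) and 1.57 ± 0.21 (adjusted p = 0.0152). ITGA7, the laminin receptor of muscle, read 0.57 and 1.39 at 24 h and 1.61 and 1.71 at 48 h, and rose at 48 h by 1.66 ± 0.07 (adjusted p = 0.0324), a call lost with arrays scaled to 1 spread (adjusted p = 0.0529). ITGA6, the chain that joins ITGB4 in hemidesmosomes and ITGB1 elsewhere, read 0.27 and 0.19 at 24 h and -1.46 and -2.28 at 48 h. It fell 3.66-fold at 48 h (-1.87 ± 0.58, adjusted p = 0.0272), while its difference of -2.10 ± 0.35 (SE) was just past the threshold (adjusted p = 0.0515). The 2 hemidesmosome chains thus had opposite calls at 48 h, ITGB4 higher and ITGA6 lower.

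Of the alpha chains that recognise the RGD motif of fibronectin and vitronectin, ITGA5, the fibronectin receptor, read 0.23 and 0.38 at 24 h and -1.41 and -1.95 at 48 h. It fell 3.21-fold at 48 h (-1.68 ± 0.38, adjusted p = 0.0188), and its difference between the times was -1.99 ± 0.24 (SE, adjusted p = 0.0394). ITGA2B, the platelet chain, stood at -0.98 ± 0.01 and -0.34 ± 0.49 and passed at neither. Of the collagen-binding chains, ITGA1 rose at both times (1.04 ± 0.29, adjusted p = 0.0350, and 1.11 ± 0.05, adjusted p = 0.0227). ITGA2, 1 protein-coding gene away from it on chromosome 5, stood at -0.59 ± 0.22 and -0.41 ± 0.29, with all 4 of its features below 0 at both times, and did not pass.

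Integrin chains known from leukocytes also gave large ratios. ITGAM, the alpha chain of the complement receptor of myeloid cells, read 2.27 and 2.40 at 24 h and 2.37 and 1.83 at 48 h, high on all 4 arrays with overlapping times. It rose 5.04-fold at 24 h (2.33 ± 0.10, adjusted p = 0.0195) and 4.30-fold at 48 h (2.10 ± 0.38, adjusted p = 0.0144). ITGAX, a related chain and the next coding gene on chromosome 16, rose by 0.76 ± 0.18 at 48 h (adjusted p = 0.0429) through 1 of its 2 features, and ITGAD, the next one again, was listed at 0 on 3 arrays. ITGAE, the chain by which lymphocytes bind E-cadherin, read 0.84 on both 24 h arrays and -2.02 and -1.48 at 48 h. It fell 3.37-fold at 48 h (-1.75 ± 0.38, adjusted p = 0.0173), and the difference was -2.59 ± 0.24 (SE, adjusted p = 0.0305).

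Of 5 measured leukocyte marker genes, 1 rose at 24 h and 2 rose at 48 h, with a list median of 0.49 and 1.00. CSF1R, the macrophage growth factor receptor, was the highest (3.25 ± 0.26 and 4.10 ± 0.22), while PTPRC, the pan-leukocyte phosphatase, was listed at 0 on 3 arrays and at -0.03 on the other. Of 4 basal epithelial markers 1 rose at each time, the basal keratin KRT15 (2.04 ± 0.20 and 3.51 ± 0.17), and KRT5 was listed at 0 on all arrays. Of 9 prostate epithelial markers 2 rose and 2 fell at 24 h, and 3 rose and 3 fell at 48 h. Of 8 fibroblast markers 2 rose and 2 fell at 48 h and 0 were called at 24 h, and of 6 endothelial markers 1 rose at each time. Over all genes 14.3% rose and 9.97% fell at 24 h, and 18.2% rose and 20.7% fell at 48 h. No marker list was tested against these shares. The part of the marker genes in the ratios of the integrins and laminins was not tested.

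Some calls rested on single arrays or on the variance model. With either 48 h array left out, the calls at 48 h of COL4A6, COL4A2, COL6A3, COL9A2, ITGA1, ITGA7, ITGAX and LAMB2 were lost, as were those at 24 h of COL4A6, LAMC3, LAMA1, ITGA1, ITGA3, ITGB2 and ITGB8. Without 48 h replicate 2 the 48 h calls of COL20A1, COL5A1, LAMA5 and ITGA3 were also lost (adjusted p = 0.0576, 0.0865, 0.0875 and 0.0673). With robust variance moderation 6 members differed between the times, namely ITGB1, ITGAE, ITGB5, COL3A1, LAMA4 and LAMB1, and the 48 h calls of COL2A1, COL6A3 and ITGAX were lost (adjusted p = 0.0527, 0.0602 and 0.0547). The differences of LAMC3 and ITGB2 were not called without either 48 h array, nor those of COL9A3 and LAMA4 without 48 h replicate 2. No called value of a member changed sign under the alternatives run, but the 24 h values of LAMA1 and ITGB8 went to 0 with the median over features.

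A gene's features did not always agree, as the plot of single features shows. Of the 37 members with several features, 17 had features more than 1 log2 unit apart at one of the times, and 41 members had a single feature, for which no such check exists. Of the 191 member features 33 were listed at 0 on all arrays. The type I chain COL1A1 and ITGAV, with 10 and 11 features, had all features on one side of 0 at each time. In each of these genes the features share a transcript record, and most read nearly alike. They may be repeats of the same probe, so their agreement may not be a check between separate probes. LAMA4, COL20A1 and COL4A6 had 1 feature high and 1 near or below 0 at one of the times, and which transcripts these features read was not examined.

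**Figure D4:**
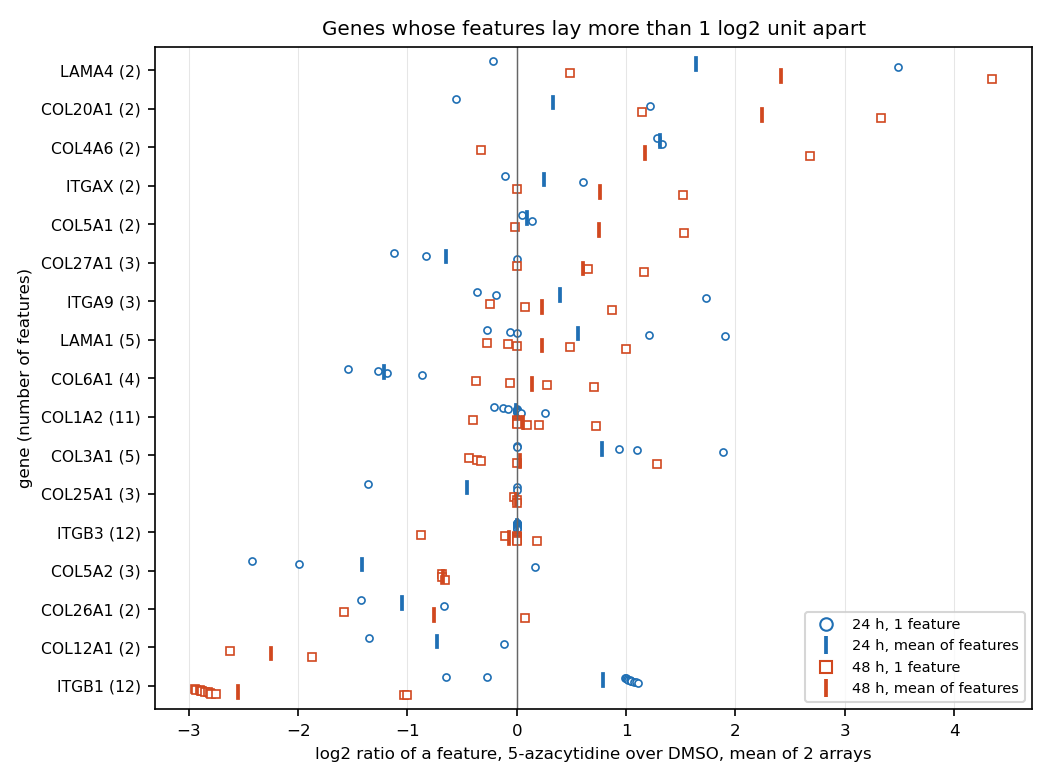
Log2 ratio of single features (open symbols, mean of 2 arrays; circles 24 h, squares 48 h) and their mean (bars) for the 17 members whose features lay more than 1 log2 unit apart at one of the times, with the number of features in brackets. At 48 h 10 of the 12 ITGB1 features cluster below -2.7 and the other two stand near -1, and LAMA4 has 1 feature at 4.35 and 1 at 0.48.

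Genes that process collagen were measured for comparison, 27 of 28 listed. At 24 h 6 rose and 3 fell (22.2% and 11.1%, against 14.3% and 9.97% of all genes). At 48 h 5 rose and 7 fell (18.5% and 25.9%, against 18.2% and 20.7%), with a median of -0.19. P3H2, which hydroxylates prolines of basement membrane collagen, rose by 0.64 ± 0.02 at 24 h and 1.62 ± 0.08 at 48 h. P3H4, a part of a collagen lysine hydroxylation complex, fell by 1.68 ± 0.12 on the log2 scale at 48 h. BMP1, which trims the C-terminal propeptides of fibrillar collagens, fell by 0.70 ± 0.05 at 48 h, when 4 of the 11 fibril-forming collagen genes rose.

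Of 33 matrix glycoprotein and proteoglycan genes, 12 rose and 1 fell at 24 h (36.4% and 3.03%, against 14.3% and 9.97% of all genes). At 48 h 8 rose and 4 fell (24.2% and 12.1%, against 18.2% and 20.7%). SPP1, which encodes osteopontin, a ligand of RGD-binding integrins, rose by 4.11 ± 0.23 at 24 h and 3.75 ± 0.06 at 48 h. NPNT, which encodes nephronectin, a basement membrane ligand of ITGA8, rose by 1.46 ± 0.29 and 2.75 ± 0.04, while ITGA8 was listed at 0 on all arrays. LUM, a collagen-binding proteoglycan, fell by 1.71 ± 0.14 at 48 h.

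Of 28 genes that link integrins to actin, 9 rose and 2 fell at 24 h (32.1% and 7.14%, against 14.3% and 9.97% of all genes). At 48 h 6 rose and 9 fell (21.4% and 32.1%, against 18.2% and 20.7%). TLN1, which encodes talin, the protein that binds integrin beta tails and switches the receptor on, fell by 0.88 ± 0.02 at 48 h, the time at which ITGB1, ITGA5 and ITGA6 fell. RSU1, a part of the adhesion complex with ILK and PINCH, fell by 1.33 ± 0.07 and ACTN1, an actin crosslinker, rose by 0.96 ± 0.04 at 48 h, a call lost with the median over its features (0.48, adjusted p = 0.0661). Of 17 genes of hemidesmosomes and other matrix receptors 4 rose and 1 fell at 24 h (23.5% and 5.88%), and 2 rose and 4 fell at 48 h (11.8% and 23.5%). Among them SGCB, a subunit of the laminin-binding dystrophin complex, fell by 2.96 ± 0.68, SDC3, a heparan sulfate receptor, by 1.33 ± 0.17 and HMMR, a hyaluronan receptor that also acts on the mitotic spindle, by 1.79 ± 0.02 at 48 h.

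A start window was found for 55 of the 78 members, with a median of 23 CG against 16 over all 27305 genes of the table. CG itself is a common word, present in 96% of windows. The 36 members with 16 or more CG had a median ratio of 0 at 48 h, and the 19 with fewer had a median of 0.35. Among all measured genes the medians at 48 h were -0.13 for the 10403 with 16 or more CG and 0.01 for the 4008 with fewer. Some collagens with CG-rich windows rose at 48 h: COL11A2 and COL5A1 have 37 CG each, COL9A2 has 29 and COL4A2 has 45. The window of ITGAM, which also rose, has 2 CG and that of ITGB7, which rose as well, has 4. A CG count describes the sequence only, and members share neither a count nor a direction.

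**Figure D5:**
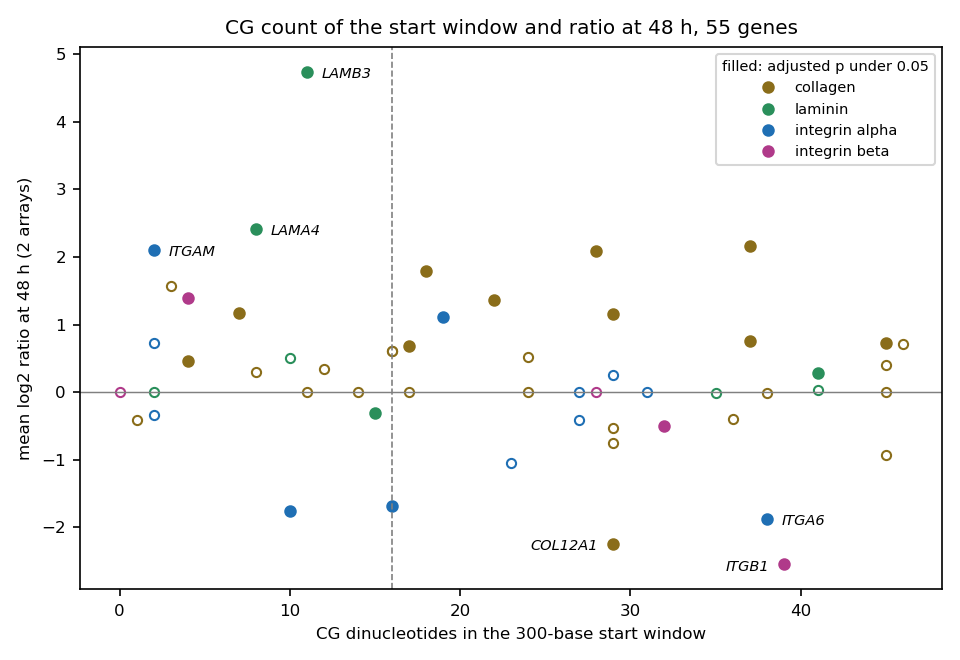
Number of CG dinucleotides in the start window of 300 bases (x axis; the highest count where a gene has several windows) against the mean log2 ratio at 48 h (y axis) for 55 members, filled where the limma adjusted p is under 0.05; the dashed line is the median of 16 over all genes. Called genes lie on both sides of the line and of 0, with LAMB3 at 11 CG and ITGB1 at 39 CG.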

How the data were processed

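Total RNA of LNCaP cells was compared on 4 two-colour Agilent arrays, 2 at 24 h and 2 at 48 h. The authors deposited 1 table of log10 ratios, made with Agilent Feature Extraction 8.5.1.1 per the submitters' processing notes; its settings are not given in the sources used here. Base and direction are not stated in the table. By the convention of that software the values are taken as log10 of red (Cy5) over green (Cy3), the labels give treated RNA as Cy5, and multiplication by log2 of 10 put them on the log2 scale. Column medians were 0, and what centred them is not stated. Without intensities there was no filter on background, and an exact 0, found for 6011 to 6695 features per array, can stand for an unmeasured spot. The array names carry 1 slide number, so slide was no batch.

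Of 43376 features with values, the 31332 with 1 gene symbol on the platform were averaged to 18334 genes. limma 3.58.1 (R 4.3.3) fitted the log2 ratios with 1 mean per time and the spread shared by both (2 residual and 0.735 prior degrees of freedom). Over all genes, replicate arrays differed by a median of 0.126 at 24 h and 0.332 at 48 h. A shared spread may thus be too small for 48 h and too large for 24 h. The p-values were adjusted by Benjamini-Hochberg over all 18334 genes, with calls under 0.05. No set test was run. The members and lists were chosen with earlier results of these data known. Genes were named by rule: in each class and time, the 5 highest and 5 lowest called genes with both arrays of 1 sign, the 3 highest and 3 lowest called differences, known partner subunits, and from each list of other matrix and adhesion genes the 3 with the lowest p at 48 h. Genes outside this rule, such as COL9A1, ITGA2B and the marker genes, were named after their values were seen. Start windows came from RefSeq, GRCh38.p14. Alternatives were a replicate block, scaled or quantile-normalized arrays, the median over features, features at 0 left out, robust moderation, the arrays of that time only and each array left out. Figures were drawn with matplotlib 3.10.9.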

Additional observations from a re-analysis of the deposited data

Results flagged for a closer look

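For 16 of the 78 genes the ratio of treated to vehicle cells differed between 24 h and 48 h by limma's test of the difference itself (adjusted p under 0.05). For 6 of them the ratio was lower at 48 h, with differences on the log2 scale of -3.34 for ITGB1, -2.59 for ITGAE, -1.99 for ITGA5, -1.38 for ITGB5, -0.86 for LAMC3 and -0.75 for COL3A1. For the other 10 it was higher at 48 h, by 0.59 for COL7A1, 0.78 for LAMA4, 0.79 for ITGB2, 0.82 for ITGB4, 1.04 for LAMB1, 1.29 for COL9A3, 1.30 for ITGB7, 1.67 for COL24A1, 1.94 for COL11A2 and 2.21 for COL1A1. With 2 arrays at each time, no array could be examined as far from the others of its time.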

How the results depend on the processing

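Deviations of same-numbered arrays from their time means correlated with -0.03 between the times. Whether same-numbered arrays shared a culture or a day is not stated in the labels, and this correlation cannot settle it. With a replicate block, limma called 0 members at 24 h, 0 at 48 h and 0 for the difference (26, 36 and 27 at an unadjusted p under 0.05). At 24 h 16 members were called, and 27 with arrays scaled to 1 spread, 27 after quantile normalization, 29 with features at 0 left out and 25 with genes at 0 on all arrays left out. At 48 h 30 were called, and 0 with the arrays of that time only. For the difference 16 were called, and 26 after quantile normalization, 29 with features at 0 left out, 26 with genes at 0 on all arrays left out and 6 with robust moderation. Leaving out each array in turn gave 0 to 20 calls at 24 h, 0 to 30 at 48 h and 0 to 28 for the difference. For the difference, 28 members were called without 48 h replicate 1. The counts with the median over features, and with the features of one transcript record averaged first, stayed within 1.5 times of these. Averaging by transcript record and leaving out genes at 0 were chosen after seeing the data. Some uncalled values changed sign and passed: LAMC1 at 48 h ranged from -0.32 without 48 h replicate 1 (adjusted p = 0.0326) to 0.37 without 48 h replicate 2, the difference of COL4A6 stood at 1.35 with features at 0 left out (adjusted p = 0.0153), and that of ITGA10 ranged from 0.69 without 48 h replicate 1 to -0.77 without 48 h replicate 2. The difference of ACTN1 turned to -0.19 with the median over features. Apart from ACTN1, no called value of the members and other genes examined changed sign. Why counts moved was not tested. Having 2 arrays a time limits precision, and signal over background is not known here.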
